A study of Mus musculus with 2 samples.

Results

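The genes described here make cyclic AMP, break it down, respond to it or hold its kinase in place. They are the protein-coding rows of the expression table whose symbols belong to the Adcy, Pde, Prkac, Prkar, Akap, Creb, Crtc and Nr4a families, together with Crem, Rapgef3 and Rapgef4. They were taken by name alone, and the rule found 69 genes among 21821 protein-coding rows of 55323 rows in all. RNA came from TgS1 cells, a line labelled as Schwann cells of a mouse transgenic for human transthyretin V30M. The cells were cultured long-term in SCM, an abbreviation the labels leave unexplained, or in DMEM. Both cultures carry the transgene and are the same line. There was 1 library per medium, so the differences below could not be set against a spread between replicates, and no test was made. The SCM library held 36666676 reads assigned to rows of the table and the DMEM library 29085791.

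Cyclic AMP is a small second messenger. G protein-coupled receptors raise or lower it through stimulatory and inhibitory G proteins that act on adenylyl cyclases, and phosphodiesterases hydrolyse it. It frees the catalytic subunits of protein kinase A (PKA) from regulatory subunits, which A-kinase anchoring proteins (AKAPs) tether at particular sites, and it activates the exchange factors EPAC1 and EPAC2, encoded by Rapgef3 and Rapgef4. PKA phosphorylates the transcription factor CREB, which works with CRTC coactivators at the cyclic AMP response element (CRE) of genes such as those of the NR4A nuclear receptors. In Schwann cells, the glia of peripheral nerves, a rise in cyclic AMP is one of the signals that start differentiation towards myelination.

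Levels are FPKM, that is, reads divided by gene length and by the reads assigned in the library, so they may be set side by side between genes. A gene counted as measured at 1 FPKM or more in 1 or both libraries. It was called at a difference of at least 2-fold on the scale of log2(FPKM + 1), SCM over DMEM. Each fold is the ratio of FPKM itself, and the range in brackets after it is the 95% exact Clopper-Pearson interval from its reads. These intervals cover counting error only and may be too narrow, since amplified reads are not independent molecules. Fewer cells of a type and less RNA per cell cannot be told apart in such bulk samples.

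Of the 69 genes 40 were measured. Prkar2b and Nr4a1 were called higher in SCM, which is 2 of 40 or 5%, against 2.48% of the 10081 measured protein-coding rows and 3.1% of all 12334 measured rows. Neither call held with a pseudocount of 3 FPKM, under which their log2 ratios were 0.92 and 0.71. None was called lower, against 1.44% of protein-coding rows and 2.8% of all rows. The median log2 ratio of the 40 genes was -0.00, with 20 genes above 0 and 20 below, and that of the measured protein-coding rows was -0.03. Most of these genes therefore lay within 2-fold of their level in the other medium. Of the measured genes 2 of 9 phosphodiesterases and 9 of 11 Akap genes lay above 0, as did 45.6% of the measured protein-coding rows, and the difference between the families was not tested. Counting intervals lay wholly above a ratio of 1 for 16 of the 40 genes and wholly below it for another 16. Together these are 80% of the 40 genes, against 70.3% of the measured protein-coding rows.

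**Figure D1:**
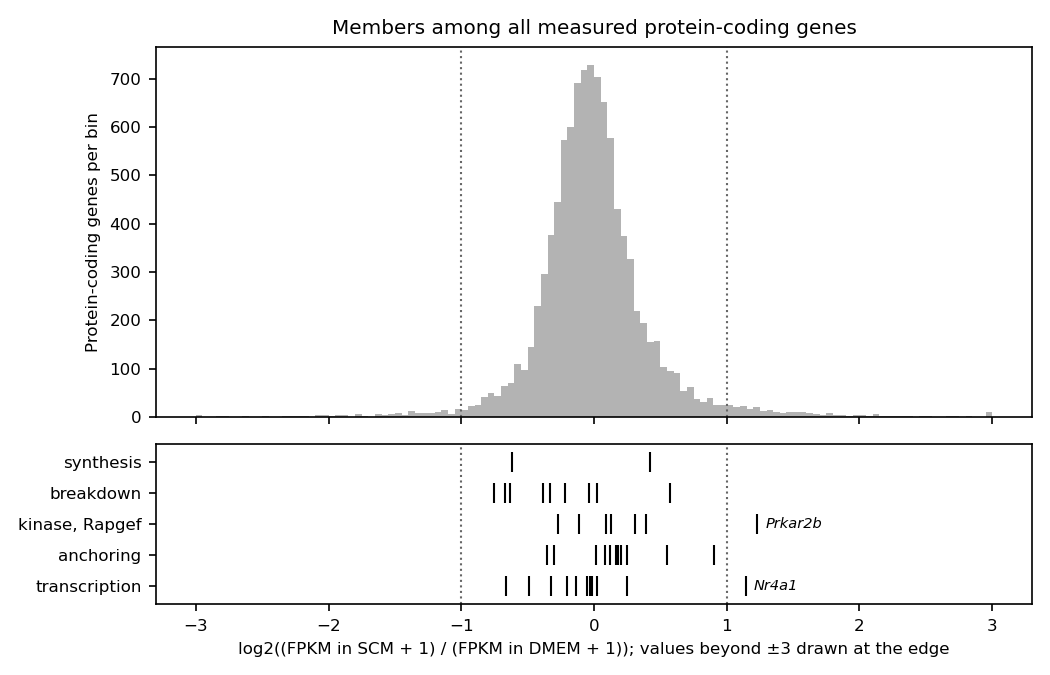
The upper panel is a histogram of log2((FPKM in SCM + 1) / (FPKM in DMEM + 1)) over the 10081 measured protein-coding genes, and each tick in the lower panel is 1 of the 40 measured cyclic AMP pathway genes, by role. Dotted lines mark 2-fold, and Prkar2b and Nr4a1 are the only ticks beyond them.

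The pseudocount of 1 FPKM holds back the ratio of weakly expressed genes. A second rule, added after the values were seen, took a plain ratio of at least 2 with at least 20 reads in the library that had more and a counting interval off 1. It named 7 of 50 genes higher in SCM (14%, against 6.28% of 11728 protein-coding rows) and 3 lower (6%, against 4.17%). The higher genes were Prkar2b, Nr4a1, Akap12, Pde4b, Pde5a, Rapgef4 and Pde1c, and the lower ones Adcy5, Akap5 and Creb3l4. A gene that reaches 20 reads in 1 library alone had to differ to enter, so these counts describe the genes and are not support for a difference.

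**Figure D2:**
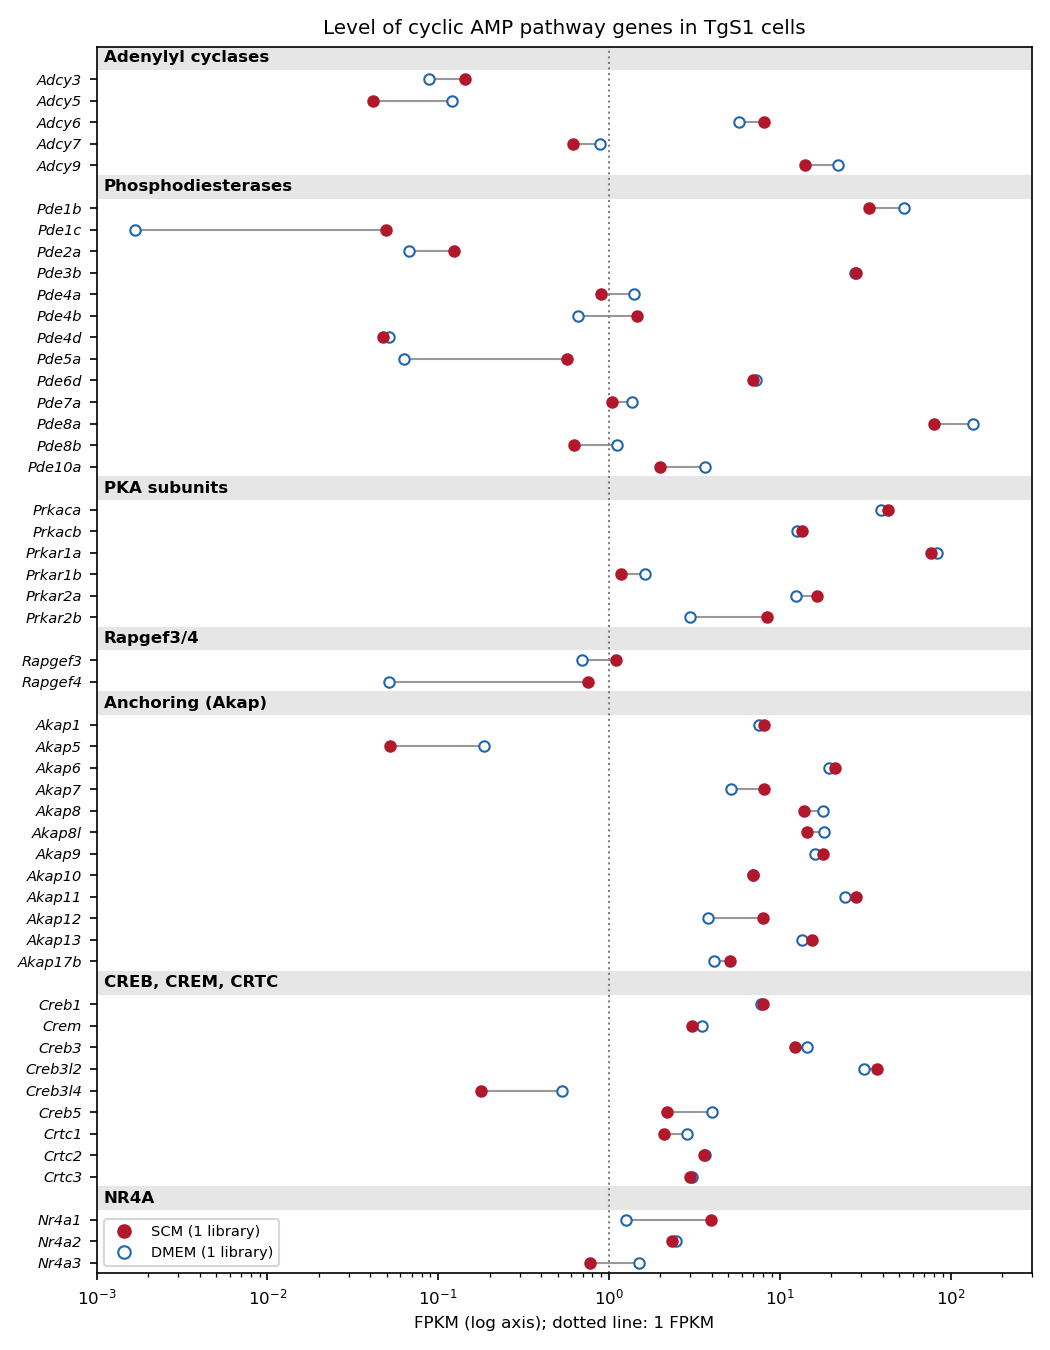
FPKM on a log axis for the 50 genes with at least 20 reads in 1 or both libraries, grouped by role, with filled red points for SCM and open blue points for DMEM. Pde8a and Prkar1a stand at the right, and Rapgef4, Pde5a and Pde1c show the widest gaps, with their DMEM points under 0.1 FPKM.

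Most of the adenylyl cyclase FPKM came from a pair of genes for membrane-bound forms that leaned in opposite directions. Adcy9, a cyclase known for its weak response to forskolin, had 14.1 FPKM (2679 reads) in SCM and 22.1 FPKM (3337 reads) in DMEM, 1.57-fold lower in SCM (1.49 to 1.65). Adcy6, which calcium inhibits, had 8.10 FPKM (2015 reads) in SCM and 5.78 FPKM (1141 reads) in DMEM, 1.40-fold higher (1.302 to 1.51). Adcy9 was the more abundant cyclase in both media, but its lead over Adcy6 was 1.74-fold in SCM and 3.82-fold in DMEM. Summed over the 10 cyclase genes, the level was 23.0 FPKM in SCM and 29.0 FPKM in DMEM. Adcy9 made up 61.2% of that sum in SCM and 76.2% in DMEM, and Adcy6 35.3% in SCM and 19.97% in DMEM.

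The other 8 cyclases were under the filter. Adcy7 came nearest, at 0.616 FPKM (152 reads) in SCM and 0.883 FPKM (173 reads) in DMEM. Adcy3, the cyclase of olfactory cilia, had 33 reads in SCM and 16 in DMEM, and 22.1% of its bases are shared with Cenpo on the other strand. Adcy5, a close relative of Adcy6, had 11 reads in SCM and 25 in DMEM. The soluble, bicarbonate-sensitive Adcy10 had 1 read in SCM and 2 in DMEM, and the calcium-stimulated Adcy8 had 2 reads in SCM and 0 in DMEM. Adcy1, Adcy2 and Adcy4 had 0 reads in both.

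Most of the phosphodiesterase FPKM came from Pde8a, Pde1b and Pde3b, and the first and second of these were lower in SCM. Enzyme activity was not measured. Pde8a, a high-affinity phosphodiesterase specific for cyclic AMP, was the most abundant of all 69 genes, at 80.3 FPKM (11914 reads) in SCM and 136 FPKM (16026 reads) in DMEM. It was 1.70-fold lower in SCM (1.66 to 1.74), with a log2 ratio of -0.75 that ranked 295 from the bottom of the 10081 measured protein-coding rows. Pde1b, a calcium and calmodulin activated enzyme that hydrolyses both cyclic AMP and cyclic GMP, had 33.3 FPKM (6590 reads) in SCM and 53.7 FPKM (8432 reads) in DMEM, 1.61-fold lower (1.56 to 1.67). Pde3b, the form that insulin activates in fat cells, was level, at 28.0 FPKM (9353 reads) in SCM and 27.5 FPKM (7299 reads) in DMEM, with an interval of 0.986 to 1.05.

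Most of the weaker phosphodiesterases that were measured leaned the same way as Pde8a, but this depends on the filter. Pde8b and Pde4a reached 1 FPKM in DMEM alone, so they entered through the library where they were higher. Under the plain ratio rule, which takes in weaker genes, 3 phosphodiesterases were higher in SCM and 0 lower. Pde10a, which also acts on both nucleotides, had 1.995 FPKM (940 reads) in SCM and 3.64 FPKM (1360 reads) in DMEM, 1.82-fold lower (1.68 to 1.98). Pde8b, the paralog of Pde8a, had 0.622 FPKM (134 reads) in SCM and 1.11 FPKM (190 reads) in DMEM, 1.79-fold lower (1.43 to 2.25). Pde4a had 0.901 FPKM (253 reads) in SCM and 1.40 FPKM (311 reads) in DMEM, and Pde7a 1.03 FPKM (294 reads) in SCM and 1.36 FPKM (307 reads) in DMEM, both specific for cyclic AMP, and the intervals of both lay below 1. Pde6d had 7.0 FPKM in SCM and 7.21 FPKM in DMEM, and its product is a carrier of prenylated proteins and not a catalytic subunit.

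Pde4b went the other way among the measured phosphodiesterases, and it reached 1 FPKM in SCM alone, the library where it was higher. This member of the rolipram-sensitive PDE4 group had 1.46 FPKM (566 reads) in SCM and 0.654 FPKM (201 reads) in DMEM, 2.23-fold higher (1.90 to 2.64), which the log2(FPKM + 1) scale shortened to 0.57. Pde4a led the PDE4 group in DMEM and Pde4b in SCM, while Pde4d had 21 reads in SCM and 18 in DMEM and Pde4c 0 reads in both. Pde5a, specific for cyclic GMP, was under the filter at 0.569 FPKM (205 reads) in SCM and 0.0629 FPKM (18 reads) in DMEM, a ratio of 9.03 (5.57 to 15.5). Pde1c had 37 reads in SCM and 1 in DMEM, a ratio of 29.4 with a counting interval of 4.95 to 1190.

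Summed over all 22 phosphodiesterase genes, the level was 156 FPKM in SCM and 233 FPKM in DMEM, 1.499-fold lower in SCM. Pde8a made up 51.7% of that sum in SCM and 58.4% in DMEM, Pde1b 21.4% in SCM and 23.1% in DMEM, and Pde3b 18% in SCM and 11.8% in DMEM. At the 1.5-fold mark 5 of the 40 measured genes were lower (12.5%, against 4.99% of protein-coding rows) and 3 higher (7.5%, against 6.44%). The 5 lower genes were Pde8a, Pde1b, Pde10a, Adcy9 and Creb5, so 3 of them are phosphodiesterases. The 3 higher genes were Prkar2b, Nr4a1 and Akap12.

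**Figure D3:**
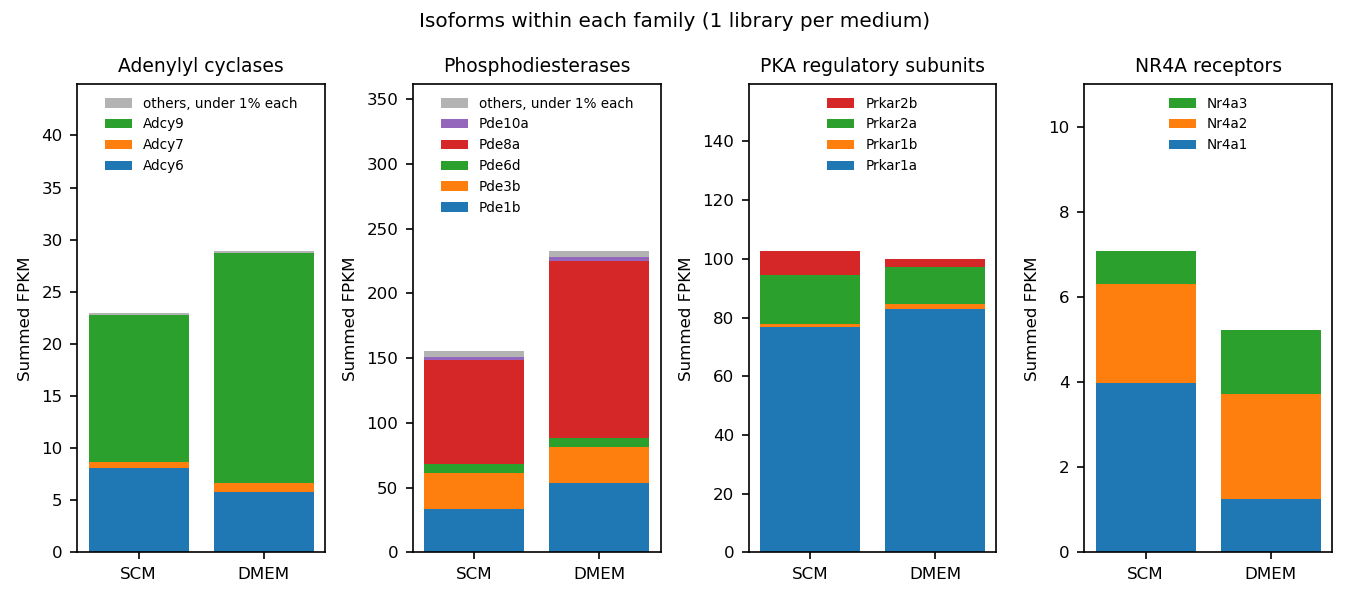
Stacked bars of FPKM by gene in SCM (left bar) and DMEM (right bar) for the adenylyl cyclases, the phosphodiesterases, the PKA regulatory subunits and the NR4A receptors, with genes under 1% of both sums pooled in grey. The phosphodiesterase bar reaches 156 FPKM in SCM and 233 in DMEM, whereas the PKA regulatory bars differ little in height but more in makeup.

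The PKA genes had similar sums in both media, 159 FPKM in SCM and 152 FPKM in DMEM, and differed more in which regulatory subunits made them up. Prkaca, the main catalytic subunit, had 43.1 FPKM (3936 reads) in SCM and 39.3 FPKM (2845 reads) in DMEM, and Prkacb 13.5 FPKM (4348 reads) in SCM and 12.6 FPKM (3217 reads) in DMEM. Their ratios were 1.10 (1.05 to 1.15) and 1.07 (1.02 to 1.12). Prkaca made up 76.1% of the catalytic sum in SCM and 75.7% in DMEM. Among regulatory subunits Prkar1a, the widely expressed type I alpha form, led with 76.6 FPKM (12142 reads) in SCM and 83.0 FPKM (10431 reads) in DMEM, 1.08-fold lower (1.05 to 1.11). Its type I partner Prkar1b had 1.18 FPKM (165 reads) in SCM and 1.63 FPKM (181 reads) in DMEM, 1.38-fold lower (1.11 to 1.72).

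Both type II regulatory subunits, the forms that most AKAPs bind, were higher in SCM. Prkar2b had 8.37 FPKM (1121 reads) in SCM and 2.99 FPKM (318 reads) in DMEM, 2.80-fold higher (2.47 to 3.18). Its log2 ratio of 1.23 ranked 154 from the top of the 10081 measured protein-coding rows. Prkar2a had 16.6 FPKM (3886 reads) in SCM and 12.4 FPKM (2302 reads) in DMEM, 1.34-fold higher (1.27 to 1.41). Type II subunits summed to 24.99 FPKM in SCM and 15.4 FPKM in DMEM, and type I subunits to 77.8 FPKM in SCM and 84.6 FPKM in DMEM. The type II share of regulatory FPKM was therefore 24.3% in SCM and 15.4% in DMEM. Regulatory over catalytic FPKM stood at 1.81 in SCM and 1.93 in DMEM.

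The start regions of Prkar1a, the most abundant regulatory subunit gene, and of Prkar2b, the one called higher, are shown. The windows run from 250 bases before to 50 after an annotated start in RefSeq (GRCm38.p6), and 57 of the 69 genes matched a window. Capitals mark the full CRE (TGACGTCA, the same on both strands) and the short CRE motif (TGACG, or CGTCA on the other strand). A full CRE holds 1 short motif on each strand, and both were counted. Prkar1a has several annotated starts, and the window shown is chr11:109650699-109650998 on the plus strand. It holds 1 full CRE that begins 49 bases before the start and 1 separate TGACG that begins 187 bases before it. In an overlapping Prkar1a window the same CRE begins 38 bases after the start, and the remaining Prkar1a windows hold no full CRE. The Prkar2b window, chr12:32061228-32061527 on the minus strand, holds 0 of either motif, while that of Prkar2a, the more abundant type II gene, holds 1 short motif.
Prkar1a: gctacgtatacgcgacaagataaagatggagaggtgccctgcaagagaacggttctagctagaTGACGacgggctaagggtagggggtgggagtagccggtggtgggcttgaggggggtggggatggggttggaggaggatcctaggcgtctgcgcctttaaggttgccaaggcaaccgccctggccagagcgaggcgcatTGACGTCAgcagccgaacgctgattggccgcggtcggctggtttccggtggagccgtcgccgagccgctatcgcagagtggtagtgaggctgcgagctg
Prkar2b: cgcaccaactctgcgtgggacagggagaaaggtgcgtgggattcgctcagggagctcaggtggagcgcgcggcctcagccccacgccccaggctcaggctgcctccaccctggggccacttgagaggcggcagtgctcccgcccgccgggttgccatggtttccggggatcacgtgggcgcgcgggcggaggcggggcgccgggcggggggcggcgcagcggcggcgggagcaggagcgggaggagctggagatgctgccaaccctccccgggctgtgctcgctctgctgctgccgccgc

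A full CRE was found in 588 of 32851 windows of all genes (1.79%) and in 3 of the 103 windows of these genes, where 2 are overlapping Prkar1a windows that share 1 site and the other is a Creb5 window. Short motifs were found in 20.8% of all windows and in 25.2% of the windows of these genes. A match describes letters in the window, and its use by a factor was not tested.

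The EPAC genes were weakly expressed and higher in SCM. Rapgef3 (EPAC1) had 1.10 FPKM (256 reads) in SCM and 0.695 FPKM (128 reads) in DMEM, 1.59-fold higher (1.28 to 1.98). It reached 1 FPKM in SCM alone, the library where it was higher. Rapgef4 (EPAC2) had 0.752 FPKM (184 reads) in SCM and 0.0515 FPKM (10 reads) in DMEM, 14.6-fold higher (7.76 to 30.9), though it stayed under 1 FPKM and so was not among the measured genes. Rapgef4 made up 40.5% of the EPAC sum in SCM and 6.90% in DMEM.

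Most anchoring genes were expressed and lay slightly above 0. Of 15 Akap genes 11 were measured, 9 lay above 0 and their median log2 ratio was 0.16. Of the 11 genes 0 passed 2-fold, where 2.48% of measured protein-coding rows were called higher and 1.44% lower. Akap12, which encodes the scaffold gravin at the plasma membrane, came nearest to the limit, at 7.99 FPKM (1970 reads) in SCM and 3.79 FPKM (742 reads) in DMEM. In plain FPKM it was 2.11-fold higher (1.93 to 2.29), with a log2 ratio of 0.91 on the scale used for calls. Akap7, a small membrane-anchored form that places PKA near ion channels, had 8.08 FPKM (1296 reads) in SCM and 5.20 FPKM (662 reads) in DMEM, 1.553-fold higher (1.41 to 1.71).

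The 4 most abundant anchors in SCM were large scaffolds, with ratios close to 1. In DMEM Akap8 and Akap8l, given below, stood above Akap9 and Akap13. Akap11 had 27.8 FPKM in SCM and 23.9 FPKM in DMEM, the nuclear envelope anchor Akap6 21.2 FPKM in SCM and 19.3 FPKM in DMEM, and the centrosomal and Golgi anchor Akap9 18.03 FPKM in SCM and 16.0 FPKM in DMEM. Akap13 had 15.4 FPKM in SCM and 13.5 FPKM in DMEM. These 4 genes had ratios of 1.09 to 1.16, with 11225 to 14614 reads each in SCM and 7671 to 10271 in DMEM, and intervals above 1. The mitochondrial anchor Akap1 had 8.09 FPKM in SCM and 7.59 FPKM in DMEM, Akap10 7.01 FPKM in SCM and 6.93 FPKM in DMEM, and Akap17b 5.08 FPKM in SCM and 4.12 FPKM in DMEM, 1.23-fold higher (1.12 to 1.36). Intervals of Akap1 and Akap10 held 1. The 2 measured genes below 0 were the nuclear anchor Akap8, at 13.9 FPKM (4408 reads) in SCM and 18.01 FPKM (4538 reads) in DMEM, and its neighbour in sequence and position Akap8l, at 14.5 FPKM (2693 reads) in SCM and 18.05 FPKM (2663 reads) in DMEM, with both intervals below 1.

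Anchors known from other tissues were scarce. Akap5, a synaptic membrane anchor of neurons, had 13 reads in SCM and 37 in DMEM. Akap3 and Akap4, sperm tail proteins, and Akap14 had 0 reads in both libraries.

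**Figure D4:**
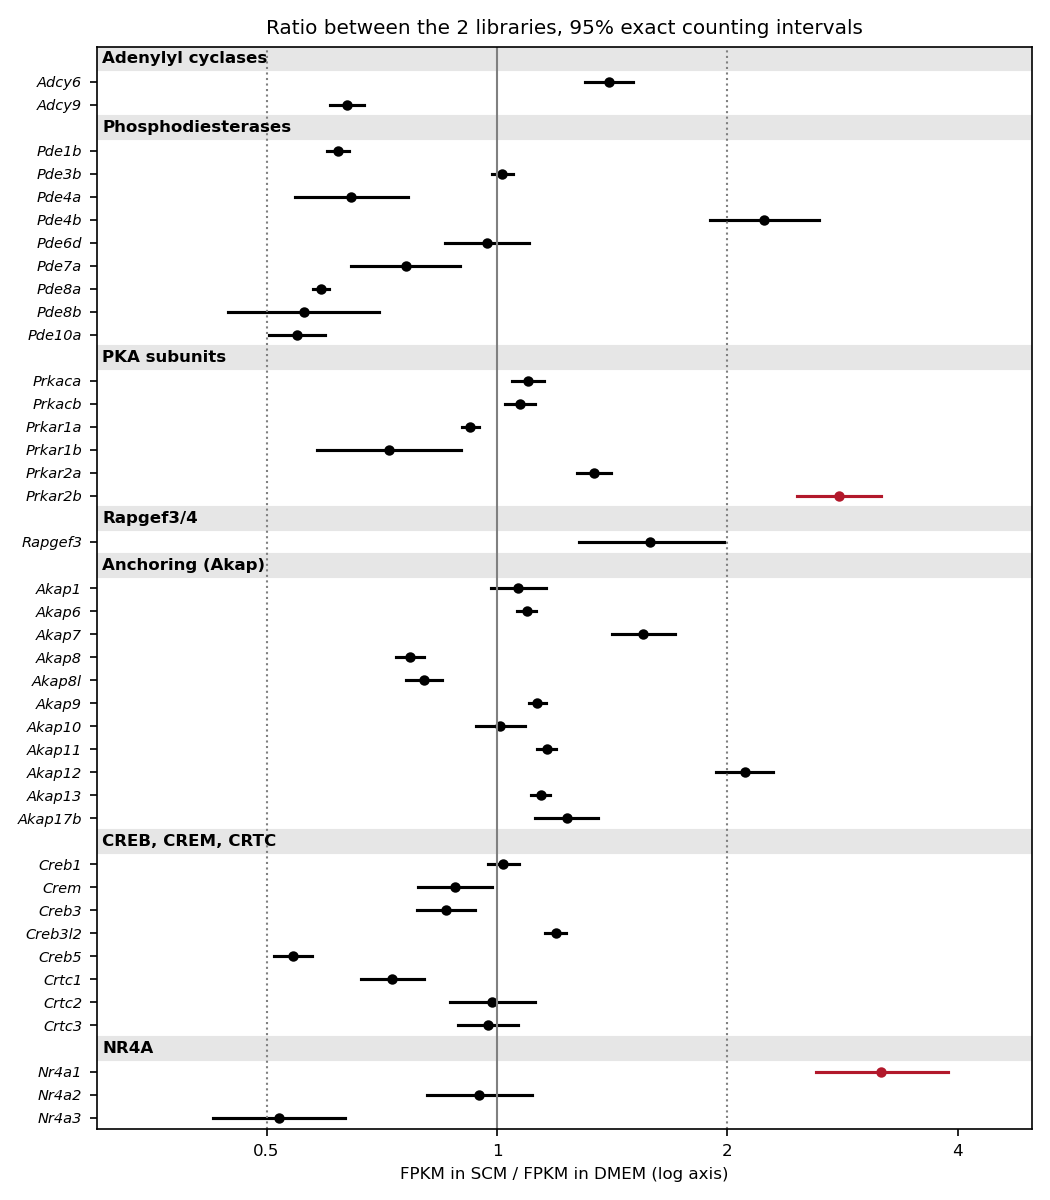
FPKM in SCM divided by FPKM in DMEM on a log axis for the 40 measured genes, with 95% exact counting intervals as bars and the 2 called genes in red. The type II PKA genes lie to the right of 1 and type I to the left, and 6 of the 9 phosphodiesterase intervals lie wholly left of 1.

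The main transcription factor genes of the pathway differed little. Creb1, the kinase-inducible activator, had 7.96 FPKM (4013 reads) in SCM and 7.81 FPKM (3123 reads) in DMEM, with an interval of 0.972 to 1.07. Crem, which encodes activator and repressor forms, had 3.08 FPKM (666 reads) in SCM and 3.49 FPKM (599 reads) in DMEM, 1.13-fold lower (1.01 to 1.27). Reads of separate Crem forms were not resolved, since the table gives 1 value per gene. Of the CRTC coactivators Crtc1 was 1.37-fold lower (1.25 to 1.505), at 2.09 FPKM in SCM and 2.86 FPKM in DMEM. Crtc2 had 3.62 FPKM in SCM and 3.67 FPKM in DMEM, Crtc3 had 2.97 FPKM in SCM and 3.06 FPKM in DMEM, and the intervals of both held 1.

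Genes of the CREB3 group encode factors anchored in the membrane of the endoplasmic reticulum and share the name more than the pathway. Creb3l2 led them at 37.0 FPKM (9887 reads) in SCM and 31.0 FPKM (6569 reads) in DMEM, 1.19-fold higher (1.16 to 1.23). Creb3 had 12.3 FPKM (1071 reads) in SCM and 14.4 FPKM (991 reads) in DMEM, and 15.2% of its bases are shared with Tln1 on the other strand, at 64.8 FPKM in SCM and 74.2 FPKM in DMEM. Creb3l1 had 18 reads in SCM and 10 in DMEM, Creb3l4 11 reads in SCM and 26 in DMEM, and Creb3l3 0 reads in both.

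Creb5, a CRE-binding factor related to ATF2, had a log2 ratio of -0.66. It had 2.18 FPKM (2000 reads) in SCM and 4.02 FPKM (2927 reads) in DMEM, 1.84-fold lower (1.74 to 1.95). Its start region at chr6:53287053-53287352 on the plus strand in GRCm38.p6 is shown because it holds 1 of the full CREs, which begins 45 bases before the annotated start.
Creb5: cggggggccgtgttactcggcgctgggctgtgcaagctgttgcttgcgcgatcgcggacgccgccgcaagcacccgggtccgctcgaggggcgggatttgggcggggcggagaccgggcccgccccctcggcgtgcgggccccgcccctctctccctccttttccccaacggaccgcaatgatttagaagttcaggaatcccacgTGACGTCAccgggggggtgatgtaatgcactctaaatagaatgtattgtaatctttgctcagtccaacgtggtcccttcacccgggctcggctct

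The NR4A genes, immediate early genes for orphan nuclear receptors, differed among themselves. Nr4a1 had 3.98 FPKM (512 reads) in SCM and 1.25 FPKM (128 reads) in DMEM, 3.17-fold higher (2.61 to 3.88), and its log2 ratio of 1.14 ranked 190 from the top. Nr4a2 was level, at 2.34 FPKM (348 reads) in SCM and 2.46 FPKM (291 reads) in DMEM, with an interval of 0.810 to 1.11. Nr4a3 had 0.779 FPKM (171 reads) in SCM and 1.499 FPKM (261 reads) in DMEM, 1.92-fold lower (1.58 to 2.35). It reached 1 FPKM in DMEM alone, the library where it was higher. Nr4a1 made up 56.1% of the NR4A sum in SCM and 24.0% in DMEM, so the leading gene was Nr4a1 in SCM and Nr4a2 in DMEM.

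The 3 NR4A start regions are shown together because each holds 4 short CRE motifs, although the genes did not lie on the same side of 0. At least 4 short motifs were found in 76 of 32851 windows (0.231%) and in no other window of these genes. The windows are chr15:101266596-101266895 on the plus strand for Nr4a1, chr2:57123954-57124253 on the minus strand for Nr4a2 and chr4:48045055-48045354 on the plus strand for Nr4a3, all in GRCm38.p6. In Nr4a1 all 4 are CGTCA, and they begin 233, 213, 69 and 40 bases before the start. In Nr4a2 they begin 200, 144, 123 and 111 bases before it, and in Nr4a3 231, 213, 205 and 147 bases before it.
Nr4a1: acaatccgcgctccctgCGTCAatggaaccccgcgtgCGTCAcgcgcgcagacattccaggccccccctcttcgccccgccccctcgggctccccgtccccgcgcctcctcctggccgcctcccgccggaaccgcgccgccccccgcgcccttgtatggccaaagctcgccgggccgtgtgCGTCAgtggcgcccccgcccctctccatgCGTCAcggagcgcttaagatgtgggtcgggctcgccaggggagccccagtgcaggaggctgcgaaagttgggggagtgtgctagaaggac
Nr4a2: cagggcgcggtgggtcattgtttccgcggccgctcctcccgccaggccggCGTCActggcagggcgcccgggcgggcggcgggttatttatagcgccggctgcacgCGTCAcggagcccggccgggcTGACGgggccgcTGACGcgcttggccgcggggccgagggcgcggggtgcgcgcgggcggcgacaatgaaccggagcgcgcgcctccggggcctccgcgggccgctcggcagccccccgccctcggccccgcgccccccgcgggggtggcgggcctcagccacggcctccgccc
Nr4a3: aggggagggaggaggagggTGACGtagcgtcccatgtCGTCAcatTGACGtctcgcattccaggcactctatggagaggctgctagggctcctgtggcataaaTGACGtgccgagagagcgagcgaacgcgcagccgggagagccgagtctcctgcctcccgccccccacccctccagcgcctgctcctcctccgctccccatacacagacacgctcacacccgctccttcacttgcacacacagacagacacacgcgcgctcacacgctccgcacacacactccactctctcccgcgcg

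The 29 genes under the filter reached at most 0.752 FPKM in SCM and 0.883 FPKM in DMEM. Of these, 11 had 0 reads in both libraries, which allows up to 0.0457 FPKM in SCM and 0.0576 FPKM in DMEM for the shortest of them, taking 3 reads as the limit. They were Adcy1, Adcy2, Adcy4, Pde4c, Pde6c, Pde7b, Pde11a, Akap3, Akap4, Akap14 and Creb3l3. Pde1a had 10 reads in SCM and 0 in DMEM, and Pde3a 5 reads in SCM and 0 in DMEM. Pde2a had 28 reads in SCM and 12 in DMEM. It shares 64.3% of its bases with Gm45837 on the same strand, so its count is uncertain. The retinal Pde6a had 1 read in SCM and 3 in DMEM, and Pde6b and Pde9a each had 1 read in SCM and 0 in DMEM.

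Genes around the pathway were taken from lists. Over all measured protein-coding rows 2.48% were called higher and 1.44% lower, so 0 or 1 call in a short list says little about its genes. Upstream, 0 of 5 measured genes of G protein alpha subunits and their Ric8 chaperones passed 2-fold. Gnas, the stimulatory subunit gene, had 108 FPKM in SCM and 131 FPKM in DMEM, 1.21-fold lower (1.20 to 1.23), and the inhibitory Gnai2 127 FPKM in SCM and 135 FPKM in DMEM. Of 23 genes for receptors that couple to adenylyl cyclase and their accessory proteins, 4 were measured. Adgrg6, the adhesion receptor that raises cyclic AMP in Schwann cells, had 20.5 FPKM in SCM and 16.7 FPKM in DMEM, 1.23-fold higher (1.19 to 1.27). The call in this list was Ramp2, an accessory protein of the adrenomedullin receptor, at 1.91 FPKM (231 reads) in SCM and 0.0417 FPKM (4 reads) in DMEM, whereas the receptor gene Calcrl itself had 9 reads in SCM and 13 in DMEM.

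Beside the kinase, the PKA inhibitor gene Pkig had 7.36 FPKM in SCM and 4.95 FPKM in DMEM, 1.49-fold higher (1.34 to 1.65), and Pkia had 2.22 FPKM in SCM and 2.44 FPKM in DMEM. Among anchors that lack the Akap name, 6 of 12 measured genes lay above 0 and 6 below. The list had 1 call, higher in SCM, against 2.48% of measured protein-coding rows. It was the intermediate filament gene Synm, at 13.0 FPKM (3787 reads) in SCM and 2.44 FPKM (564 reads) in DMEM. Ezr, the ezrin gene, lay just inside the limit at 72.6 FPKM in SCM and 36.1 FPKM in DMEM.

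Downstream, CREB partners and regulators had 0 of 11 measured genes past 2-fold and a median log2 ratio of 0.00. Crebrf had 35.9 FPKM in SCM and 27.1 FPKM in DMEM, Atf1, the closest relative of Creb1 and Crem, 10.3 FPKM in SCM and 13.3 FPKM in DMEM, and Sik3, a kinase that restrains CRTC proteins, 12.5 FPKM in SCM and 15.8 FPKM in DMEM. Of 10 measured cyclic AMP and CREB targets 0 were called higher and 1 lower, with a median of -0.12. Over all measured protein-coding rows 2.48% were called higher and 1.44% lower, so these few calls say little about either list. The lower gene was the AP-1 gene Fosl2, at 9.82 FPKM in SCM and 32.0 FPKM in DMEM. Fos, another AP-1 gene, had 32.0 FPKM in SCM and 57.9 FPKM in DMEM, 1.81-fold lower (1.72 to 1.90). Of these 10 genes 4 lay above 0 and 6 below.

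From a list of Schwann cell genes known to respond to cyclic AMP, 8 were measured, with 4 above 0 and 4 below. Of these 8 genes 3 were called higher and 0 lower, against 2.48% and 1.44% of measured protein-coding rows. The myelin genes Pmp22 and Mal were among those called higher. Pmp22 had 16.0 FPKM (1377 reads) in SCM and 6.78 FPKM (464 reads) in DMEM, and Mal 13.8 FPKM (1401 reads) in SCM and 3.33 FPKM (269 reads) in DMEM. Gldn, which encodes the nodal protein gliomedin, went the other way at 24.7 FPKM in SCM and 40.5 FPKM in DMEM. Egr2 and Pou3f1, transcription factor genes of the list, were under the filter, with Egr2 at 0.995 FPKM (124 reads) in SCM and 0.283 FPKM (28 reads) in DMEM and Pou3f1 at 35 reads in SCM and 13 in DMEM.

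All 10 Schwann cell markers checked were measured in both media, and the lineage factor gene Sox10 had 113 FPKM in SCM and 126 FPKM in DMEM. None of 4 endothelial and 5 neuron markers was measured, and the endothelial list summed to 0.0277 FPKM in SCM and 0.0552 FPKM in DMEM. Fibroblast markers summed to 3.21 FPKM in SCM and 0.913 FPKM in DMEM, almost all from Col1a2, while Lum, Col1a1 and Twist2 had 0 reads in both, and the part of other cells in the differences above was not tested. Among the measured genes, exons of Akap9, Creb3 and Pde8b overlap another measured row on the opposite strand, over 0.751% of the bases of Akap9 and 7.60% of those of Pde8b. The sources used here do not state whether reads were counted by strand, and reads of these 3 genes may be shared with their neighbours.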

How the data were processed

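Per the labels' protocols, stranded total-RNA libraries were prepared from TgS1 cells, 1 for SCM and 1 for DMEM. The submitters' processing notes name Trim Galore, cutadapt 3.1, Trimmomatic 0.39, STAR 2.7.9a and featureCounts 2.0.1. The genome build behind the table's coordinates was not settled, and none of them is printed. The authors deposited FPKM values per gene, with gene lengths. Each FPKM value was turned back into reads from its step size, and all came out whole within 0.01 read. Count models were not used, since neither medium has replicates.

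Ratios used log2(FPKM + 1), SCM over DMEM, among rows of at least 1 FPKM in 1 or both libraries. Intervals are 95% exact Clopper-Pearson, and a limit for 0 reads is 3 reads per library. Scripts used Python 3.11.15, numpy 2.4.6, pandas 2.3.3 and scipy 1.17.1 and were tested on simulated data. The members and lists were chosen with earlier results of these data known. The text names every measured member and, from each list, the genes past 2-fold, or else those with the largest differences. Other list genes, among them Adgrg6, Calcrl, Pkig, Pkia, Ezr, Fos, Gldn, Egr2 and Pou3f1, were chosen after their values were seen. Pseudocount, filter, scaling and threshold were varied. Some list genes are not reported here.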

Additional observations from a re-analysis of the deposited data

How the results depend on the processing

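The count of genes called higher moved with the pseudocount, which sets how far a low gene can differ. It was 4 with 0.1 FPKM, where Akap12 and Pde4b joined, and 0 with 3 FPKM. A filter of 5 FPKM left 1 call, Prkar2b, and a median log2 ratio of 0.093. Rescaling to TPM over protein-coding rows gave 5 calls, with Akap12, Pde5a and Rapgef4 added. The plain ratio rule, chosen after seeing the data, gave 7 higher and 3 lower, and a 1.5-fold threshold gave 5 lower. Of the 40 measured genes 1, Crtc2, changed sign under an alternative, with log2 ratios of -0.02 to 0.01.

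Counting reads without dividing by gene length gave summed ratios of 0.827 for adenylyl cyclases, 0.708 for phosphodiesterases, 1.09 for Akap genes, 1.15 for the CREB3 group and 1.20 for NR4A genes. Shares by reads, SCM and then DMEM, were 54.8% and 71.1% for Adcy9, 38.5% and 46.3% for Pde8a, 47.5% and 46.9% for Prkaca, 70.1% and 78.8% for Prkar1a, and 49.7% and 18.8% for Nr4a1. Prkacb therefore has more reads than Prkaca, although Prkaca leads per length.

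No paired analysis was possible because each medium has 1 library, and leaving out a library was not run for the same reason. Counting intervals hold no spread between cultures. Genes under 20 reads in both libraries allow no statement on direction.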

Other observations

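Genes on the cyclic GMP side, which shares phosphodiesterases with cyclic AMP, were mostly weak. The list held genes for guanylyl cyclases, natriuretic peptide receptors and cyclic GMP kinases, and the phosphodiesterase subunit genes Pde6g and Pde6h. Of its 10 genes 3 were measured and 0 passed 2-fold, where 2.48% of measured protein-coding rows were called higher and 1.44% lower. Npr2, the receptor for C-type natriuretic peptide, had 9.09 FPKM (1555 reads) in SCM and 7.22 FPKM (980 reads) in DMEM, 1.26-fold higher (1.16 to 1.37). Prkg1, the cyclic GMP kinase, had 7.21 FPKM (2916 reads) in SCM and 10.2 FPKM (3268 reads) in DMEM, 1.41-fold lower (1.34 to 1.49). Gucy1a2, a subunit of soluble guanylyl cyclase, had 1.10 FPKM (267 reads) in SCM and 0.951 FPKM (184 reads) in DMEM. Npr3, a clearance receptor chosen here after its value was seen, had 0.851 FPKM (293 reads) in SCM and 0.0293 FPKM (8 reads) in DMEM, a ratio of 29.1 (14.5 to 67.9).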
